A study of Rattus norvegicus with 60 samples.

Results

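The complement and coagulation factors are plasma proteins that the liver makes and secretes. They were followed here as 35 genes picked by symbol from the study's rat liver read counts, 18 of the complement system and 17 of the clotting system. The 35 symbols held 36 of the 32883 gene rows, because complement factor B (Cfb) had 2 rows. Of these 36 rows, 34 passed the filter on low counts and were tested among 12167 genes, 17 complement and 17 clotting genes. No threshold on measured levels was used to choose the members.

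Complement is a cascade of plasma proteases that marks microbes and damaged cells. It starts on antibodies (the classical route) or on microbial sugars (the lectin route), converges on C3, and ends in a pore built from C5b, C6, C7, C8 and C9. Clotting is a second protease cascade, in which thrombin finally turns fibrinogen into fibrin, and inhibitors such as antithrombin hold it in check. Hepatocytes are the main source of most of these proteins, and several are acute-phase genes driven by cytokines together with the liver transcription factors HNF1, HNF4 and C/EBP.

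The study gave perfluorooctanoic acid (PFOA), a fluorinated fatty acid that activates the nuclear receptor PPAR-alpha in rodent liver, to male Sprague-Dawley rats by daily oral gavage. The doses were 0 (water vehicle), 1, 5 and 15 mg/kg per day for 7, 14 or 28 days, with 5 rats in each of the 12 groups and 1 polyA RNA library per rat. The labels give ages of 7 to 8, 8 to 9 and 10 to 11 weeks for the 3 lengths of dosing, and the design text gives 5 to 6 weeks for the rats used. No group carried a genetic change, and all rats were housed singly.

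The 60 libraries held 7965497 to 24770119 counts, with a median of 12606152. Each of the 34 tested members had reads in all 60 libraries. The exposure was visible in the PPAR-alpha target Acot1, whose mean was 0.606 to 1.29 CPM (read counts divided by the TMM-scaled library size) in the vehicle groups and 663 to 797 CPM in the 15 mg/kg groups. Hepatocyte markers were present in every group, with Alb at 68012 to 147482 CPM in the day 28 vehicle libraries. Of 7 hepatocyte markers, 5, 3 and 4 were lower at 15 mg/kg on days 7, 14 and 28, and their summed level on day 14 was 102922 to 148287 CPM in vehicle and 50853 to 108120 CPM at 15 mg/kg. Alb made up most of that sum, at 73755 to 134969 CPM in vehicle and 40530 to 101003 CPM at 15 mg/kg. Of 10 Kupffer cell markers, 2, 8 and 4 were lower, with marker sums of 516 to 814 CPM in vehicle and 150 to 380.0 CPM at 15 mg/kg on day 14. Of 8 endothelial markers 0, 1 and 0 were lower, and of 8 stellate cell markers 3, 3 and 2. All 5 erythroid markers tested were lower on day 7 and none on days 14 and 28. Of all genes tested, 7.21%, 10.2% and 8.31% were lower at 15 mg/kg on days 7, 14 and 28. No hepatocyte, Kupffer cell or endothelial marker was at 0 in a whole group. The mitochondrially encoded share of the counts was 1.66% to 5.25% in the vehicle libraries and 4.55% to 13.8% at 15 mg/kg. The part of these shifts in the values below was not tested. In whole liver, fewer hepatocytes and less of a transcript per hepatocyte cannot be told apart.

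At 5 and 15 mg/kg, many complement and clotting transcripts fell on every day, and no member rose. At 15 mg/kg, 14 of 34 members fell on day 7, where 7.21% of all genes tested fell. On day 14 it was 19 members against 10.2% of all genes, and on day 28 it was 18 members against 8.31%. With 5 mg/kg, 10, 13 and 11 members fell on days 7, 14 and 28, against 2.87%, 5.27% and 4.85% of all genes. The day 7 count at 5 mg/kg was 5 without vehicle library 2 and 6 without dosed library 3, and the day 28 count was 5 without dosed library 3 and 6 without dosed library 2. Scaled by library totals without TMM, the day 7 counts were 6 at 5 mg/kg and 9 at 15 mg/kg, and the day 14 and 28 counts at 15 mg/kg were both 14. That scaling moved the calls over all genes at 15 mg/kg from 877 lower and 824 higher to 564 and 1088 on day 7, and from 1236 and 1541 to 876 and 1953 on day 14. A call here is an adjusted p under 0.05 in edgeR's quasi-likelihood test, with Benjamini-Hochberg adjustment over the 12167 genes. None of the 34 passed as higher at 5 or 15 mg/kg by edgeR, by limma-voom or by DESeq2, and none was higher at an unadjusted p under 0.05. Of all genes, 3.27%, 5.47% and 5.63% were called higher at 5 mg/kg on days 7, 14 and 28, and 6.77%, 12.7% and 8.89% at 15 mg/kg. At an unadjusted p under 0.05 it was 8.79%, 11.5% and 11.9% at 5 mg/kg, and 12%, 18.9% and 14.6% at 15 mg/kg.

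The shift was moderate for the median member and large for a few. The median log2 fold change of the 34 members at 15 mg/kg was -0.58, -0.62 and -0.54 on days 7, 14 and 28, where the medians of all genes were -0.03, 0.04 and -0.01. The members' medians at 5 mg/kg were -0.49, -0.61 and -0.44. For 1 mg/kg they were -0.13, -0.10 and -0.12, beside -0.01, 0.02 and 0.01 for all genes. The complement median at 15 mg/kg was -0.72, -0.78 and -0.87, and the clotting median was -0.42, -0.39 and -0.46. The difference between the families was not tested.

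**Figure D1:**
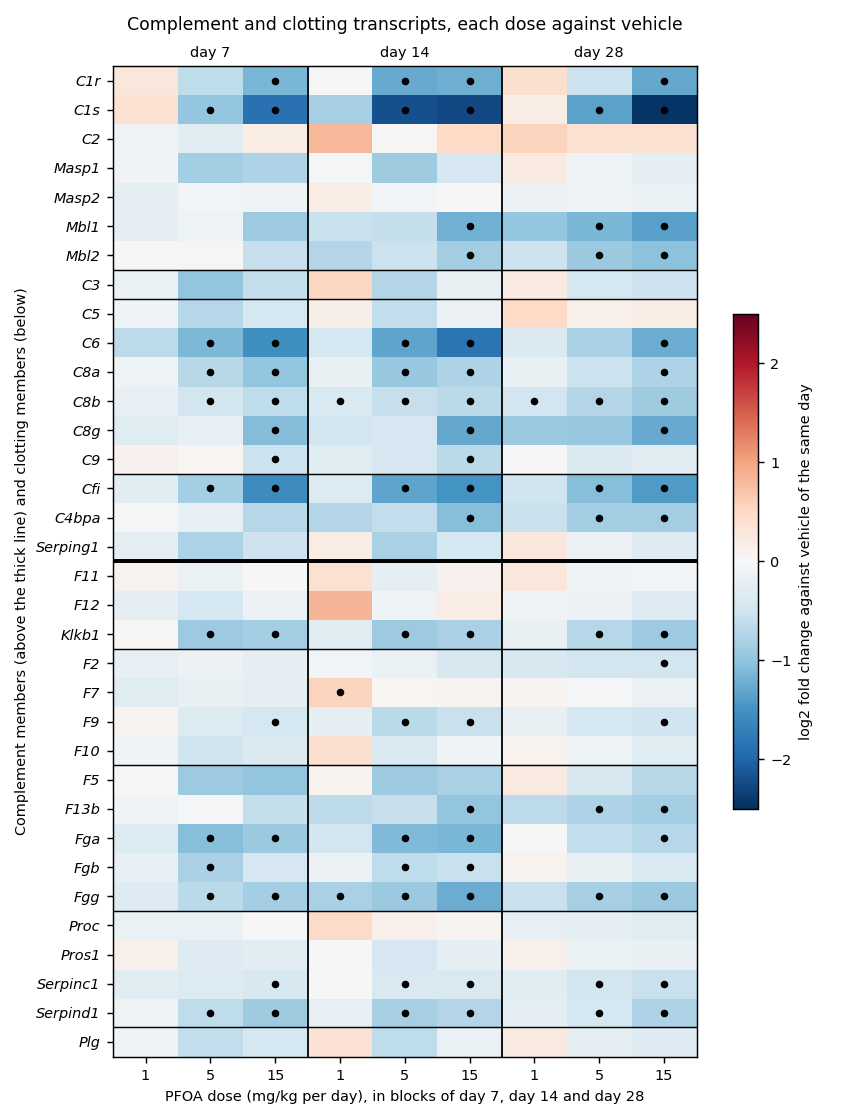
Log2 fold change of the 34 tested members (rows, grouped by role, complement above the thick line) at each dose against the vehicle group of the same day (columns); a black dot marks an adjusted p under 0.05 (edgeR quasi-likelihood test, 5 libraries per group). Blue, lower levels fill most cells at 5 and 15 mg/kg, with the darkest row C1s, and the 1 mg/kg columns carry 4 dots in all.

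At 15 mg/kg, 13 members fell on all 3 days: C1r, C1s, C6, C8a, C8b, C8g, Cfi, Klkb1, F9, Fga, Fgg, Serpinc1 and Serpind1. Another 5 fell on 2 days (Mbl1, Mbl2, C9, C4bpa and F13b), and F2 and Fgb fell on 1 day. The remaining 14 did not pass on any day: C2, Masp1, Masp2, C3, C5, Serping1, F11, F12, F7, F10, F5, Proc, Pros1 and Plg. With 5 mg/kg, C1s, C8b, Cfi, Klkb1, Fgg and Serpind1 fell on all 3 days, 5 members fell on 2 days, 6 on 1 day and 17 on none. All 5 dosed libraries lay below all 5 vehicle libraries for 11, 8 and 9 members at 15 mg/kg, where this held for 4.59%, 5.84% and 4.82% of all genes. It held for 10, 9 and 7 members at 5 mg/kg, against 2.03%, 4.13% and 3.28%. With 1 mg/kg it held for 1, 1 and 4 members, against 0.551%, 3.16% and 2.05%.

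Among the 7 tested genes that start the classical and lectin routes, 2, 4 and 4 fell at 15 mg/kg on days 7, 14 and 28. C1s (ENSRNOG00000011971), the protease of the C1 complex that cleaves C4 and C2, showed the largest fall of all members. On day 28 it measured 285.2, 243, 384, 366 and 369.6 CPM in the 5 vehicle libraries and 48.5, 48.6, 74.2, 73.5 and 58.3 CPM at 15 mg/kg. The groups were far apart, and the highest dosed library was below the lowest vehicle library. Its log2 fold change was -2.44 ± 0.29 (SE, n = 5 per group; edgeR adjusted p = 1.09e-08), and it was -1.87 ± 0.29 on day 7 and -2.26 ± 0.29 on day 14. Its values at 5 mg/kg were -0.97, -2.20 and -1.34 on the 3 days, all passing the test.

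C1r, the protease that activates C1s and lies next to it in the rat genome, fell less. Its day 28 levels were 305.7, 473, 685, 639 and 422 CPM in vehicle and 182, 112, 260.97, 253.3 and 230.3 CPM at 15 mg/kg, with no overlap. This was a log2 fold change of -1.28 ± 0.32 (edgeR adjusted p = 0.00249). At the 5 mg/kg dose C1r passed on day 14 alone, at -1.25 ± 0.32.

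The mannose-binding lectins Mbl1 and Mbl2, which recognise microbial sugars, fell on days 14 and 28 at 15 mg/kg. Mbl1 changed by -1.20 ± 0.36 and -1.35 ± 0.36, and Mbl2 by -0.86 ± 0.27 and -1.03 ± 0.28. Both fell on day 28 alone at 5 mg/kg. For both, the dosed and vehicle ranges overlapped on these days at 15 mg/kg: on day 28 Mbl1 measured 594, 373, 271.9, 235 and 419 CPM in vehicle and 109, 280.4, 116, 131 and 106 CPM at 15 mg/kg. A single dosed library reached into the vehicle range and the other 4 were below it.

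Their partner proteases did not pass. Masp2, which cleaves C4 and C2 in the lectin route, measured between 230.2 and 282.1 CPM at 15 mg/kg on day 7, beside 258.2 to 311.9 CPM in vehicle. Its log2 fold changes over the 9 dose comparisons had an SE of 0.10, the smallest of any member, and ran from -0.23 to 0.18. Masp1 measured -0.78 ± 0.37, -0.42 ± 0.37 and -0.22 ± 0.37 at 15 mg/kg. C2, the protease of the classical C3 convertase, measured 0.18 ± 0.44, 0.50 ± 0.45 and 0.38 ± 0.44, and 0.84 ± 0.45 at 1 mg/kg on day 14 (edgeR adjusted p = 0.207).

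C3, on which all routes converge, could not be separated from the vehicle spread. On day 7 it measured 4793, 10596, 3032, 2377 and 10461 CPM in vehicle and 4798, 5428, 3727, 3340.4 and 3294 CPM at 15 mg/kg. The dosed libraries lay inside the wide vehicle range. Its log2 fold change was -0.60 ± 0.43 (edgeR adjusted p = 0.431), and the lowest p over the 9 dose comparisons came at 5 mg/kg on day 7, at -0.99 ± 0.44 (adjusted p = 0.201). Complement factor B, the protease of the alternative C3 convertase, was not tested: ENSRNOG00000000419 held 5 reads in total, spread over 5 libraries, and ENSRNOG00000051158 held 0 reads in all 60. Cfb lies beside C2 in the genome, and with 2 rows for one symbol the reads of Cfb are uncertain.

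Most of the terminal pathway, which builds the membrane pore, fell. Of its 6 tested genes, 5, 5 and 4 fell at 15 mg/kg on days 7, 14 and 28. C6 measured 138, 125, 132, 133 and 118 CPM in the day 14 vehicle libraries and 37.0, 41.1, 34.8, 35.0 and 34.7 CPM at 15 mg/kg. Both groups were tight and far apart. It changed by -1.82 ± 0.30 (edgeR adjusted p = 1.04e-05), beside -1.54 ± 0.30 on day 7 and -1.25 ± 0.30 on day 28.

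C8 has 3 chains encoded by C8a, C8b and C8g, and all 3 fell on all 3 days at 15 mg/kg. C8a measured -0.99, -0.78 and -0.76 (each ± 0.21) and C8g -1.09, -1.28 and -1.25 (each ± 0.37). C8b (ENSRNOG00000007639) fell by a smaller amount with a small error. On day 28 it measured 596, 473, 589, 559 and 578 CPM in vehicle and 289, 303, 289, 341 and 286 CPM at 15 mg/kg. No dosed library reached the vehicle range, and the log2 fold change was -0.89 ± 0.12 (edgeR adjusted p = 1.34e-07).

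C8b was also the only member that fell at 1 mg/kg on more than 1 day. On day 14 its vehicle libraries held 591, 542, 655, 465 and 567 CPM and its 1 mg/kg libraries 451, 426, 419, 420.2 and 450.0 CPM. On day 28 the 1 mg/kg libraries held 398, 358, 379, 438 and 427 CPM. On both days all 5 dosed libraries were below all 5 vehicle libraries. The log2 fold changes were -0.38 ± 0.12 (edgeR adjusted p = 0.0421) and -0.48 ± 0.12 (adjusted p = 0.0118). The day 14 call was lost when any of 8 of the 10 libraries was left out, with values from -0.44 to -0.30.

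The RefSeq promoter window of C8b (GRCr8, chr5:124763864-124764163, plus strand, 250 bases before to 50 bases after the start) is shown because this gene responded at the lowest dose. Capitals mark matches to an HNF4 core (CAAAGT) and to a C/EBP core (TTGCNNAA, here on the minus strand), which share 3 bases in the first run of capitals. A match is a description of letters and not a binding site.
C8b: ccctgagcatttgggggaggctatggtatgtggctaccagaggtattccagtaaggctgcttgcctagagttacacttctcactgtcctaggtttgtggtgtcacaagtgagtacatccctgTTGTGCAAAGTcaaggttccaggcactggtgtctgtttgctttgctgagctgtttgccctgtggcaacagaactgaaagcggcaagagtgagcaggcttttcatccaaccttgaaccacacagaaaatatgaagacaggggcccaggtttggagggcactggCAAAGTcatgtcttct

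C9, the pore-forming protein, fell on days 7 and 14 at 15 mg/kg (-0.54 and -0.67, each ± 0.18) and measured -0.29 ± 0.18 on day 28. C5, which starts the terminal pathway, measured -0.44, -0.15 and 0.19 (each ± 0.41) and passed at no dose, with its lowest p at 5 mg/kg on day 7 (-0.71 ± 0.41, edgeR adjusted p = 0.383). Its day 28 vehicle libraries alone spanned 206 to 726 CPM.

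Of the 3 regulators tested, 1, 2 and 2 fell at 15 mg/kg. Complement factor I (Cfi, ENSRNOG00000053400), the protease that inactivates C3b and C4b, gave the smallest p-value of all members on each day at that dose. On day 7 it measured 1122, 1262, 1046, 998 and 1321 CPM in vehicle, 564, 664, 553, 613 and 792 CPM at 5 mg/kg, and 394, 441, 458, 311.3 and 340.4 CPM at 15 mg/kg. The 3 groups did not overlap. It fell by 1.56 ± 0.17 on the log2 scale at 15 mg/kg (edgeR adjusted p = 1.66e-09) and by 0.85 ± 0.17 at 5 mg/kg (adjusted p = 0.000513). On days 14 and 28 Cfi measured -1.49 and -1.41 at 15 mg/kg.

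C4bpa encodes a chain of the C4b-binding protein, a cofactor for Cfi. On day 14 it measured 1787, 1282, 1698, 1514 and 1377 CPM in vehicle and 482, 741, 1201, 647 and 572 CPM at 15 mg/kg. The ranges did not touch, and the log2 fold change was -1.07 ± 0.27 (edgeR adjusted p = 0.00259). Serping1, the C1 inhibitor, measured -0.52, -0.44 and -0.32 (each about ± 0.33) at 15 mg/kg and did not pass. Its lowest p came at 5 mg/kg on day 14, at -0.80 ± 0.34 (adjusted p = 0.122).

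**Figure D2:**
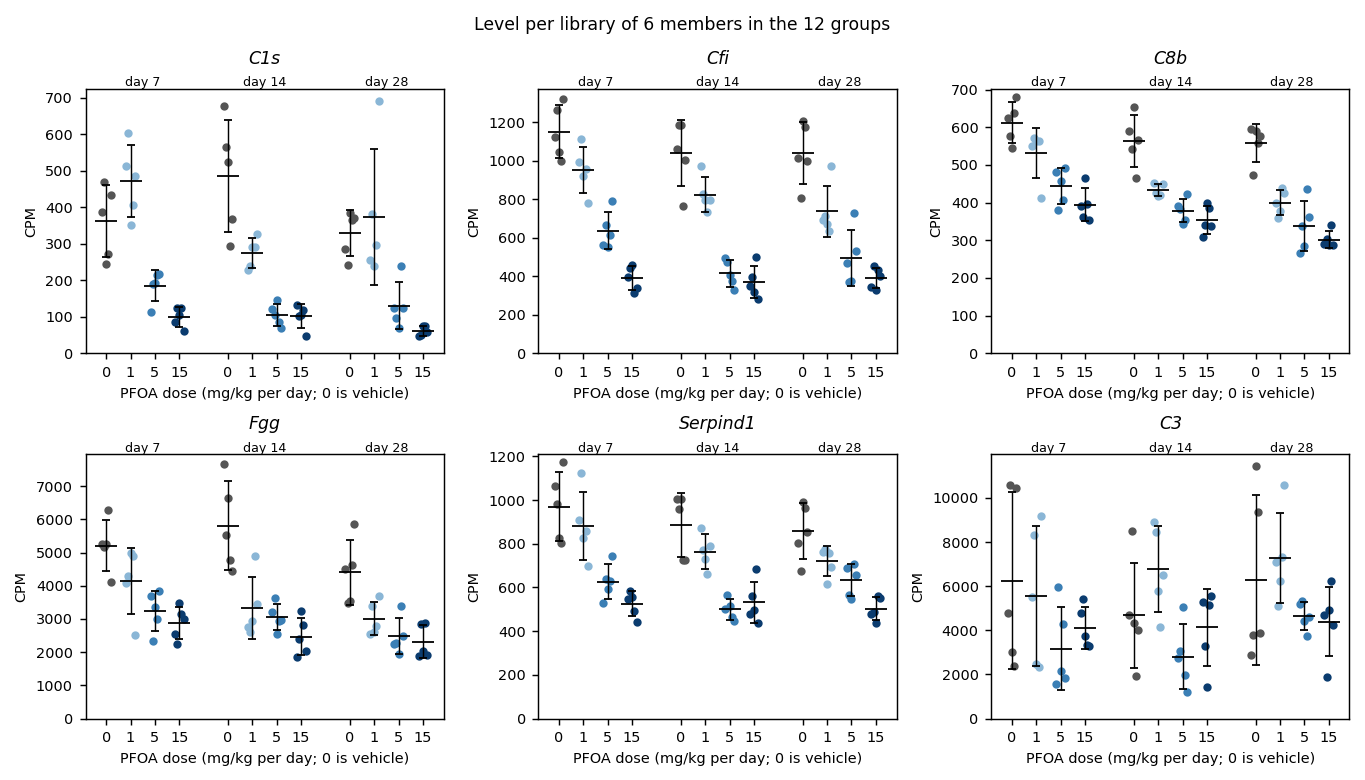
CPM of C1s, Cfi, C8b, Fgg, Serpind1 and C3 in each of the 60 libraries (points), with the mean and SD of the 5 libraries (bars), by dose and day; the vertical axes start at 0. Cfi, C8b and Fgg step down with dose on all 3 days, C1s and Serpind1 are lower at 5 and 15 mg/kg, and the vehicle libraries of C3 span most of its axis.

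In the contact system, which can start clotting on surfaces and releases kinins, 1 of 3 genes fell on each day at 15 mg/kg. This was Klkb1 (ENSRNOG00000014118), plasma prekallikrein. On day 28 it measured 202, 250.2, 302.7, 427 and 305.8 CPM in vehicle and 188, 115, 141, 191 and 159 CPM at 15 mg/kg. The highest dosed library lay just below the lowest vehicle library. Klkb1 had a log2 fold change of -0.91 ± 0.24 (edgeR adjusted p = 0.00556), and at 5 mg/kg it was -0.91, -0.90 and -0.72 on the 3 days, all passing.

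F11, factor XI, is the paralog and direct genome neighbour of Klkb1, and it did not pass anywhere. Its day 28 levels were 88.0, 83.1, 183, 234 and 127 CPM in vehicle and 149.9, 98.1, 149.0, 162 and 119.8 CPM at 15 mg/kg, and these ranges overlapped fully. F11 measured -0.08 ± 0.27 in log2 fold change, and 0.01 and 0.11 on days 7 and 14. Its lowest p came at 1 mg/kg on day 14 (0.38 ± 0.27, edgeR adjusted p = 0.322). The difference between Klkb1 and F11 was not tested. F12, the contact activation factor XII, measured 281.5, 416, 779.8, 551 and 321.3 CPM in the day 28 vehicle libraries and 305.3, 243, 490.0, 448 and 392 CPM at 15 mg/kg, which overlapped (-0.32 ± 0.28, adjusted p = 0.469). F12 at 1 mg/kg on day 14 measured 0.86 ± 0.28 (adjusted p = 0.0518).

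The promoter windows of this neighbouring pair are given because Klkb1 passed the test and F11 did not; both are from RefSeq on GRCr8, plus strand, Klkb1 at chr16:53690976-53691275 and F11 at chr16:53720252-53720551. Capitals in Klkb1 mark a C/EBP core and a nuclear receptor half-site (AGGTCA). None of the 5 motifs searched was found in the F11 window on either strand. The same held for the window of Cfi, which fell on all 3 days at 15 mg/kg. The nuclear receptor half-site was in windows of 12 members. Of these, C6, Klkb1, F9, Fgg and Serpinc1 fell on all 3 days at 15 mg/kg, F13b on 2 days and F2 on 1 day. Masp1, C3, C5, F7 and F10 passed on no day at 15 mg/kg. A relation between motifs and response was not tested.
Klkb1: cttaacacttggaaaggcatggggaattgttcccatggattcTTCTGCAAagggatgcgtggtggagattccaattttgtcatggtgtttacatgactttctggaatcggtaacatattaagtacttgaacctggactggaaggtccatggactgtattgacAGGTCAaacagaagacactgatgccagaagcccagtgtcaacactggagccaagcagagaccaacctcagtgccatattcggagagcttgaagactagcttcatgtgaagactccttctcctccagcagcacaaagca
F11: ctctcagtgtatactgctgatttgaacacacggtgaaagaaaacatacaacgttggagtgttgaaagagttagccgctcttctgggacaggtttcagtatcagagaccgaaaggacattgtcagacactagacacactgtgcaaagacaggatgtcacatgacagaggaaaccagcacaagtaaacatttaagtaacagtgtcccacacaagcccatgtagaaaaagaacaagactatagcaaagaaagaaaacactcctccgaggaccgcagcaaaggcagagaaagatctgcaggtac

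Of the 4 vitamin K-dependent procoagulants, 1, 1 and 2 fell at 15 mg/kg. F9, factor IX, fell on all 3 days. On day 14 it measured 1409, 1595, 1310.1, 980.0 and 1148 CPM in vehicle and 803, 998, 673, 1036 and 854 CPM at 15 mg/kg. The ranges overlapped at the edge, through the lowest vehicle library, and the log2 fold change was -0.56 ± 0.16 (edgeR adjusted p = 0.00613).

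F2, prothrombin, measured 2626, 2179, 2434, 2139 and 2433 CPM in the day 28 vehicle libraries and 1383, 2185, 1651, 1645 and 1703 CPM at 15 mg/kg. A single dosed library lay in the vehicle range. F2 measured -0.46 ± 0.16 (adjusted p = 0.0361). The call was lost when any of 7 of the 10 libraries was left out, with values from -0.56 to -0.40.

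F7 (ENSRNOG00000032737), factor VII of the tissue factor route, was the only member called higher by edgeR in any dose comparison; DESeq2 and limma-voom each called 2 members higher, both at 1 mg/kg on day 14. In that comparison F7 measured 76.7, 73.8, 57.6, 57.9 and 53.2 CPM, beside 47.1, 45.9, 49.1, 35.8 and 37.8 CPM in vehicle. All dosed libraries were above all vehicle libraries, which held for 4.52% of all genes. F7 rose by 0.57 ± 0.18 on the log2 scale (edgeR adjusted p = 0.0462, where 3.76% of all genes were called higher). The call was lost when any of 7 of the 10 libraries was left out, with values from 0.51 to 0.64. F7 at 15 mg/kg measured -0.23, 0.07 and -0.14 (each ± 0.18), and its neighbour F10, factor X, measured -0.36, -0.11 and -0.29 (each ± 0.23). Neither passed at 5 or 15 mg/kg; the lowest p of F10 came at 5 mg/kg on day 7 (-0.51 ± 0.24, adjusted p = 0.235).

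Fibrinogen is made of 3 chains encoded by neighbouring genes. Fgg (ENSRNOG00000025074), the gamma chain, measured 7668, 5521, 6651, 4778 and 4435 CPM in the day 14 vehicle libraries and 1861, 2395, 3233, 2808 and 2034 CPM at 15 mg/kg, with no overlap. Its log2 fold change was -1.24 ± 0.20 (edgeR adjusted p = 4.78e-06), and it was -0.85 and -0.93 on days 7 and 28. Fgg at 1 mg/kg on day 14 measured 2756, 2618, 2924, 4907 and 3453 CPM, where 1 library reached into the vehicle range, and the log2 fold change was -0.80 ± 0.20 (adjusted p = 0.0111).

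Fga, the alpha chain, measured 6129, 5552, 5024, 2656 and 3054 CPM in vehicle on day 14 and 2026, 1840.1, 1587, 2663 and 2037 CPM at 15 mg/kg. The highest dosed library and the lowest vehicle library were level. Its log2 fold changes were -0.93, -1.14 and -0.72 (each ± 0.22), all passing. Fgb, the beta chain, measured -0.42, -0.56 and -0.38 (each ± 0.20), and it passed on day 14 alone at 15 mg/kg. With 5 mg/kg Fgb passed on days 7 and 14, at -0.81 and -0.64. The difference between chains was not tested.

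The promoter windows of the 3 chains are shown side by side because the genes are neighbours and fell on the same days in part. They are from RefSeq on GRCr8: Fga at chr2:170671919-170672218, plus strand; Fgb at chr2:170700826-170701125, minus strand; Fgg at chr2:170652833-170653132, plus strand. Capitals mark a C/EBP core and an HNF1 half-site (GTTAAT) in Fga and Fgb, and a TATA box (TATAAA) and a nuclear receptor half-site in Fgg.
Fga: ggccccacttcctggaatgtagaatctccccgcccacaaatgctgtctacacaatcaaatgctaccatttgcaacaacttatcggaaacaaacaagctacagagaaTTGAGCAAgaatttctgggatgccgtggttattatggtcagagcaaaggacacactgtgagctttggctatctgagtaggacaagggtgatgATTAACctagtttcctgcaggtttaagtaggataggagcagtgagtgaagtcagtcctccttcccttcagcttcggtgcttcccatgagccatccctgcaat
Fgb: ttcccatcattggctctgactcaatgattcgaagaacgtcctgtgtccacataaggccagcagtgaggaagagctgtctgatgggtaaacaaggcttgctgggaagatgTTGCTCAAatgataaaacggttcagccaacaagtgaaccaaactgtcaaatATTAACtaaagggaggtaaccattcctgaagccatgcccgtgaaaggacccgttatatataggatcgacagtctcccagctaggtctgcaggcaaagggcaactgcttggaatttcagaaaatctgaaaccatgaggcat
Fgg: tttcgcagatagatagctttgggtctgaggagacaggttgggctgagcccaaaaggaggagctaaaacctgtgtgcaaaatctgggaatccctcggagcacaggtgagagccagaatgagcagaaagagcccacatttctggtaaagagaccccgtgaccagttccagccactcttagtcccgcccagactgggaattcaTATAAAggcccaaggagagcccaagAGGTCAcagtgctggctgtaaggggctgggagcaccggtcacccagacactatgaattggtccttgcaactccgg

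Over all members, 27 of the 35 had a RefSeq promoter entry, with 28 windows in all; Masp2, C2, C1s, C8g, Serpind1, Cfb, Serping1 and C9 had none. The C/EBP core was in 42.9% of the member windows and in 10.6% of all 33469 windows. The HNF1 half-site was in 35.7% and 7.45%, and the nuclear receptor half-site in 42.9% and 16.2%. The HNF4 core was in 10.7% and 14.8%, and the TATA box in 7.14% and 14.2%. Both strands were searched, and the shares were not tested.

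F13b, the carrier subunit of factor XIII that cross-links fibrin, fell on days 14 and 28 at 15 mg/kg, at -0.98 ± 0.23 and -0.86 ± 0.23. F5, the cofactor of factor X, measured -0.98 ± 0.42 on day 7 (adjusted p = 0.12). Its day 7 levels were 166, 339, 86.9, 86.1 and 416 CPM in vehicle and 137, 176, 86.9, 96.4 and 58.7 CPM at 15 mg/kg, which overlapped.

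Of the 4 anticoagulants, 2 fell on each day at 15 mg/kg, Serpind1 and Serpinc1. Serpind1 (ENSRNOG00000001865), heparin cofactor II, measured 1064, 980.4, 827, 804 and 1172 CPM in the day 7 vehicle libraries and 547, 585, 558, 493 and 442 CPM at 15 mg/kg. The groups were separate, and Serpind1 fell by 0.89 ± 0.14 on the log2 scale (edgeR adjusted p = 5.8e-06). Serpinc1, antithrombin, measured 2304, 1999, 2773, 2528 and 2131 CPM in the day 28 vehicle libraries and 1395, 1783, 1465, 1644 and 1689 CPM at 15 mg/kg. These groups were separate too, and the log2 fold change was -0.56 ± 0.11 (adjusted p = 0.000254).

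The protein C pathway did not pass. Proc, protein C, measured 0.01, 0.07 and -0.30 (each ± 0.17) and Pros1, its cofactor protein S, measured -0.27, -0.24 and -0.18 (each ± 0.20). Pros1 had its lowest p at 5 mg/kg on day 14 (-0.42 ± 0.20, edgeR adjusted p = 0.2). Plg, the precursor of the fibrin-dissolving protease plasmin, measured 2203, 3372, 1485, 1290.1 and 3628 CPM in the day 7 vehicle libraries and 1907, 2498, 1651, 1487 and 1307 CPM at 15 mg/kg. The dosed values lay inside the vehicle range, with a log2 fold change of -0.44 ± 0.33 (adjusted p = 0.455). The lowest p of Plg came at 5 mg/kg on day 14 (-0.64 ± 0.33, adjusted p = 0.238).

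The lowest dose, 1 mg/kg, gave few calls. On day 7, 0 of 34 members were called by edgeR, beside 0.0247% of all genes lower and 0.0904% higher. At an unadjusted p under 0.05, 3 members were lower, beside 2.63% of all genes. On that day limma-voom and DESeq2 also called 0 members. On day 14, C8b and Fgg fell, where 2.95% of all genes fell, and F7 rose; these 3 calls became 1 to 6 when single libraries were left out. On day 28, C8b alone fell, where 1.38% of all genes fell and 1.85% rose. C1s measured -0.82 ± 0.28 on day 14 (adjusted p = 0.0626), and on day 28 its 1 mg/kg libraries ran from 239 to 692 CPM.

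Few members could be separated between 5 and 15 mg/kg. The median difference of the 34 was -0.06, 0.05 and -0.11 (log2) on days 7, 14 and 28, beside -0.01, 0.03 and 0.03 for all genes. The difference was negative for 20, 14 and 31 of the 34 members. Cfi on day 7 was the only member that differed between these doses (-0.71 ± 0.17, edgeR adjusted p = 0.0361, where 0.164% of all genes were lower and as many higher). That call was lost when any of 5 of the 10 libraries was left out. On days 14 and 28, 0 members were called by edgeR, limma-voom or DESeq2. At an unadjusted p under 0.05 in edgeR's test, 7, 1 and 4 members were lower on days 7, 14 and 28, beside 6.4%, 4.38% and 1.3% of all genes. No gene of the whole table was called on day 14 (0%), and on day 28 it was 0.00822% lower and 0.0329% higher. The C1s difference on day 28 was -1.11 ± 0.28 (adjusted p = 0.298). Group means fell at each step from vehicle through 1 and 5 to 15 mg/kg for 8, 9 and 18 of 34 members on days 7, 14 and 28, as they did for 8.51%, 5.64% and 10.3% of all genes. C6, C8b, Cfi and Fgg did so on all 3 days.

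No change of the effect with longer dosing passed the test. In the interaction of dose with day, 28 against 7, 0 of 34 members were called at 1, 5 or 15 mg/kg by edgeR, limma-voom or DESeq2. Of all genes, 0.0575%, 0.00822% and 0% were called higher and 0% lower. With an unadjusted p under 0.05 there were 0, 4 and 0 members, and the 4 were 3 lower and 1 higher. Of all genes, 2.39%, 4.99% and 0.994% were lower and 2.41%, 3.98% and 1.76% higher at that limit. The differences at 15 mg/kg ran from -0.58 (C1s, ± 0.40) to 0.63, and at 5 mg/kg the lowest p was that of Mbl2, at -0.95 ± 0.39 (adjusted p = 0.469). In the vehicle livers, 0 members were called between days 28 and 7 by the same 3 tools. Of all genes, 0.0247% were called lower and 0.0164% higher on day 28. At an unadjusted p under 0.05 there were 0 members, beside 2.47% of all genes lower and 2.25% higher.

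Summed over the members, the mean TMM-scaled CPM of both families was lower at the upper doses. The summed level of the complement members was 14916 ± 4547, 13630 ± 3390 and 14567 ± 4256 CPM (SD, n = 5) in vehicle on days 7, 14 and 28, and 9041 ± 1422, 8952 ± 1457 and 9391 ± 1537 CPM at 15 mg/kg. These are 60.6%, 65.7% and 64.5% of vehicle, and at 5 mg/kg the shares were 64.8%, 59.6% and 70.0%. The dosed and vehicle ranges overlapped except at 5 mg/kg on day 28. The shares at 1 mg/kg were 92.8%, 102.5% and 100.7%, and their direction changed when single libraries were left out.

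The clotting sums were 26924 ± 3312, 25180 ± 5445 and 23876 ± 4152 CPM in vehicle and 18149 ± 1047, 15526 ± 1688 and 16113 ± 1489 CPM at 15 mg/kg, or 67.4%, 61.7% and 67.5% of vehicle. They were 65.1%, 62.3% and 73.2% at 5 mg/kg, and 86.0%, 85.0% and 90.7% at 1 mg/kg. The ranges were separate at 5 mg/kg on all 3 days and at 15 mg/kg on days 7 and 28. Without the 3 fibrinogen chains the log2 ratio of the clotting sums to vehicle went from -0.62 to -0.38 at 5 mg/kg on day 7, from -0.57 to -0.40 at 15 mg/kg on day 7, from -0.68 to -0.45 at 5 mg/kg on day 14 and from -0.70 to -0.38 at 15 mg/kg on day 14. Abundant genes weighed most in these sums. C3 took 42.6% of the summed complement CPM, and Fga, Fgb and Fgg took 15.4%, 18.8% and 17.5% of the summed clotting CPM.

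**Figure D3:**
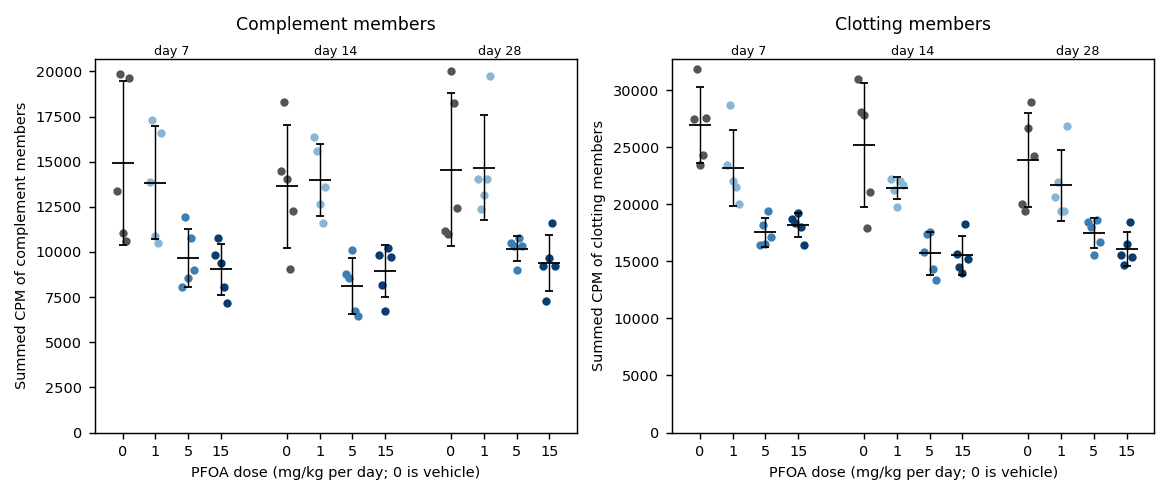
Summed CPM, in of the complement members (left) and the clotting members (right) in each library (points), with mean and SD of 5 libraries (bars), by dose and day; the axes start at 0. The 15 mg/kg complement means lie at 60.6% to 65.7% of vehicle, and the clotting means at 61.7% to 67.5%. Dosed complement libraries reach into the vehicle range on each day. On day 14 those at 9859, 9732 and 10233 CPM lie above the lowest vehicle library, at 9037 CPM.

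The members differed in how much they varied between rats of one group, and they did so in a shared pattern. The first axis of the within-group differences over all genes held 58.9% of that variance, and a score along it, computed without the members, ranked the libraries. The 83 ribosomal protein genes had a median correlation of -0.98 with the score within groups. Among the members, 18 correlated above 0.5 with it, and 8 below -0.5, as a description over 60 libraries. The median correlation was 0.62 for the members and 0.13 for all genes. C5 (0.96), C3 (0.95), Plg (0.95), Masp1 (0.94), Serping1 (0.93), C2 (0.92), F5 (0.91) and F10 (0.91) followed it. Mbl1 (-0.96), C4bpa (-0.92), C8g (-0.91), Mbl2 (-0.86) and F13b (-0.85) ran against it. C1s (0.28), Cfi (0.20) and Serpinc1 (-0.08), which fell on all 3 days at 15 mg/kg, had little relation to it. Other members that fell on all 3 days correlated more strongly with the score: C1r (0.73), C8a (0.81), Klkb1 (0.63), F9 (0.63), Fga (0.61), Fgg (-0.62) and C8g. What the score measures was not tested; the group means of the score differed from vehicle by -0.47 (5 mg/kg, day 7) to 1.09 (1 mg/kg, day 14).

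With this score as a covariate, 26, 27 and 27 of 34 members fell at 15 mg/kg on days 7, 14 and 28, and 19, 27 and 25 at 5 mg/kg. The share of all genes that fell was then also higher, 16.7%, 19.9% and 17.0% at 15 mg/kg and 8.38%, 15.1% and 12% at 5 mg/kg. The members added included C3 (-0.40, -0.76 and -0.87 at 15 mg/kg on the 3 days), Plg (-0.37, -0.56 and -0.58), Serping1 (-0.43, -0.82 and -0.62) and F5 (-0.80, -1.31 and -1.02). Without the score C3 measured -0.60, -0.18 and -0.51 and Plg -0.44, -0.17 and -0.32, so the covariate also moved the estimates. The mean score at 15 mg/kg differed from vehicle by 0.05, 0.79 and 0.67 on days 7, 14 and 28. C2, Masp2, F11, F7 and Proc passed on no day at 15 mg/kg in this fit either. The 1 mg/kg dose then gave 0, 10 and 4 lower members on days 7, 14 and 28, against 0.608%, 6.11% and 3.39% of all genes, and F7 on day 14 no longer passed (0.37, adjusted p = 0.0678). The spread between rats of a group, as edgeR's biological coefficient of variation, was 0.388 without the score and 0.196 with it. The score was taken from the main within-group variation of these same libraries, so a lower spread with it was built in. It was not centred by group, so differences between dose groups in its 500 genes also entered the covariate.

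**Figure D4:**
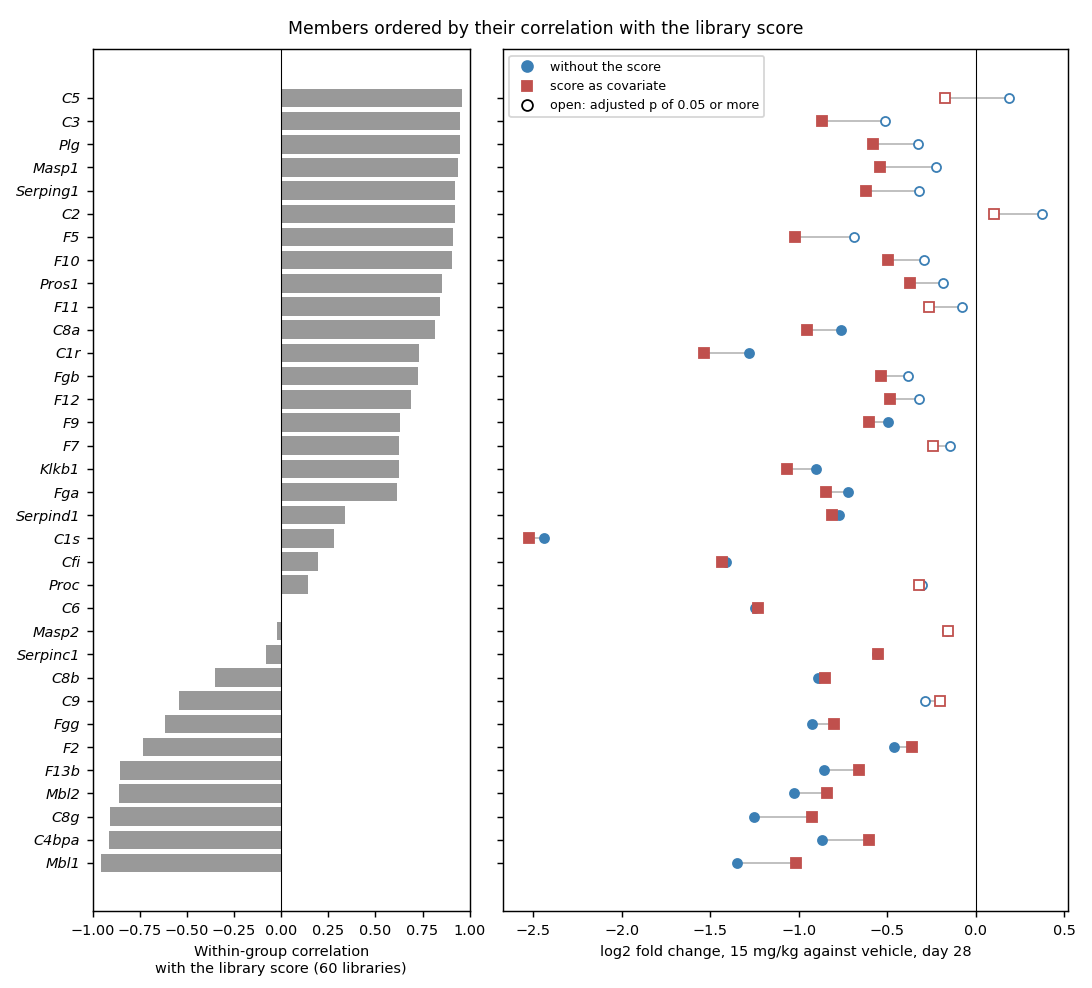
Left, the within-group correlation of each tested member with the library score (60 libraries); right, its log2 fold change at 15 mg/kg against vehicle on day 28 without the score (blue circles) and with the score as a covariate (red squares), filled where the adjusted p was under 0.05. Near the top, C3 and Plg passed only with the score, and C2 passed in neither fit. C1s went from -2.44 to -2.53 and Cfi from -1.41 to -1.43, and Mbl1 at the bottom went from -1.35 to -1.01.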

How the data were processed

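PolyA RNA from 60 rat livers was sequenced from TruSeq Stranded mRNA libraries, per the labels' protocols. Reads were trimmed with Trimmomatic 0.33, aligned with STAR 2.5.2b to Rnor_6.0 and counted with featureCounts of Subread 1.6.0, per the submitters' processing notes. The annotation and the strand setting are not given in the sources used here. The authors deposited raw read counts per gene, with no normalization, and 1.39% of the counts lay in rows without a symbol.

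Genes were kept with filterByExpr (minimum count 10, minimum total 15), scaled by TMM and fitted in edgeR 4.0.16 (R 4.3.3) with robust quasi-likelihood and 12 group means over 60 libraries (48 residual degrees of freedom). Tests are two-sided, Benjamini-Hochberg adjusted over all 12167 genes tested, with a call at an adjusted p under 0.05. The fit was run on simulated counts whose genes varied independently and with less spread than the real libraries. That run cannot show how calls behave under the shared variation between these libraries. Standard errors were derived from the log2 fold change and its F statistic. Each dose was compared with vehicle of its day, 15 with 5 mg/kg, day 28 with day 7 effects, and vehicle of day 28 with day 7. The 5 and 15 mg/kg comparisons of a day share vehicle libraries. The design text calls each animal a biological replicate, so p-values measure the spread between rats. No 2 libraries of a group were identical among 120 pairs. CPM values are comparable between samples and not between genes, since no transcript lengths were used. Sums over members were not tested.

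The members and gene lists were chosen with earlier results of these data known. Named with every library's value were, in each of 9 role groups, the 2 members with the smallest p at 15 mg/kg; named with fold changes were all members called at 1 mg/kg or called higher, and in each role group the member with the weakest evidence. Values of Mbl1, Masp2 and F11, and other fold changes, were added after they were seen. From each further list the 3 called genes with the smallest p at 15 mg/kg were named, except 1 gene that is not reported here.

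Alternatives were DESeq2 size factors, library totals without TMM, no filter, DESeq2 1.42.0, limma-voom (limma 3.58.1), libraries of the compared days only, the library score (standardized signed mean log2 CPM of the 500 genes with the largest loadings on the first within-group axis, members left out) as covariate, a 1.5-fold limit, other sums and leaving out each library. An alternative without 3 libraries of a score below -1.5 was chosen after seeing the data.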

Additional observations from a re-analysis of the deposited data

Results flagged for a closer look

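In 56 checks of groups of 5 libraries, 2 summed complement levels held a library far from the others. Chance flags about 1 in 20 such groups. At 1 mg/kg on day 28, library 5 had a summed complement level of 19744 CPM, beside 12384 to 14056 CPM in the other 4. It was also the library with the highest C1s of its group, at 692 CPM. At 5 mg/kg on day 28, library 3 had a sum of 9026 CPM, beside 10345 to 10765 CPM in the others. Leaving it out lowered the members called in that comparison from 11 to 5.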

How the results depend on the processing

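Each library came from a different rat, so there was no pairing to analyse. The labels carry no replicate numbers. No called value of a named member changed direction under any alternative run. Among the other named values, 1 reversed: F11 at 1 mg/kg on day 14, which passed in no fit, was -0.00353 with the score. The cause of the changes below was not tested. With the score, the calls were 19, 26, 10, 27, 4 and 25 (5 and 15 mg/kg day 7; 1 and 5 mg/kg day 14; 1 and 5 mg/kg day 28), and 6 for 15 against 5 mg/kg on day 7. With library totals they were 6 and 9 on day 7 at 5 and 15 mg/kg, 1 and 0 at 1 mg/kg on days 14 and 28, and 0 for 15 against 5 mg/kg. Without the filter they were 1 and 0 at 1 mg/kg, 7 at 5 mg/kg on day 28 and 0 for 15 against 5 mg/kg. With the libraries of the compared days only they were 6 at 5 mg/kg on day 7, 1 and 0 at 1 mg/kg, and 0 for 15 against 5 mg/kg. DESeq2 gave 6 and 2 at 1 mg/kg and 2 for 15 against 5 mg/kg. The 1.5-fold limit gave 1 and 0 at 1 mg/kg.

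Library totals moved the median log2 fold change of all genes from 0.04 to 0.20 at 15 mg/kg on day 14 and from -0.02 to 0.15 at 5 mg/kg on day 28. The calls over all genes at 15 mg/kg on day 28 went from 1011 lower and 1082 higher to 821 and 1189.

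Leaving out single libraries gave 5 to 10 calls at 5 mg/kg on day 7 (5 without vehicle library 2, 6 without dosed library 3), 1 to 6 at 1 mg/kg on day 14 (6 without vehicle library 2, 5 without dosed library 4, and 1 without any of 6 others), 1 to 2 at 1 mg/kg on day 28 (2 without dosed library 5), 5 to 15 at 5 mg/kg on day 28 (5 without dosed library 3, 6 without dosed library 2) and 0 to 2 for 15 against 5 mg/kg on day 7 (0 without 5 mg/kg library 1 or 5 or 15 mg/kg library 1, 4 or 5). At 15 mg/kg against vehicle the ranges were 10 to 15, 17 to 19 and 15 to 18. The complement sum at 1 mg/kg on day 14 went from 0.04 to -0.31 (log2 ratio) without C3. Without the fibrinogen chains the clotting sum was -0.38 and -0.40 at 5 and 15 mg/kg on day 7, 0.046 at 1 mg/kg on day 14 (0.043 as a mean of log2 values) and -0.38 at 15 mg/kg on day 14. At 1 mg/kg the complement sums changed sign between libraries left out, from -0.21 to 0.02, -0.08 to 0.17 and -0.12 to 0.15. C3, F5 and Plg (5 rats a group) passed at 15 mg/kg only with the score. The vehicle libraries of these genes spread widely, and the score also moved the estimates of C3 and Plg. The part of each in the calls was not tested. Without the 3 libraries of the lowest scores, chosen after seeing the data, the members lower at 15 mg/kg were 14, 19 and 18.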

Other observations

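Further genes of both systems, listed apart from the members, moved in both directions. Of 22 other complement components and regulators tested, 4, 10 and 7 fell and 3 rose on each of days 7, 14 and 28 at 15 mg/kg. Of all genes, 7.21%, 10.2% and 8.31% fell and 6.77%, 12.7% and 8.89% rose on these days. Cd46, a membrane cofactor of factor I, rose by 2.88 ± 0.41 on day 7 on the log2 scale (edgeR adjusted p = 7.62e-07), and C1qbp, a mainly mitochondrial protein named for binding C1q, rose by 1.15 ± 0.17 on day 14. The list also holds C1qa, C1qb and C1qc, which are Kupffer cell markers, and the Kupffer markers were lower themselves (8 of 10 on day 14); their part in these counts was not tested. Of 6 complement receptors, 1, 3 and 0 fell, among them Itgb2 (-0.95 ± 0.27, day 7), Vsig4, also a Kupffer cell marker (-1.65 ± 0.60, day 14), and C5ar2 (-1.21 ± 0.45, day 14).

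Of 22 other clotting and fibrinolysis genes, 8 fell on each day, and 0, 1 and 0 rose. The shares of all genes were 7.21%, 10.2% and 8.31% lower and 6.77%, 12.7% and 8.89% higher. Cpb2, which slows the lysis of fibrin, fell by 1.06 ± 0.16 on day 7, and Thbd, thrombomodulin, and Fgl1, a fibrinogen-like protein, fell by 1.85 ± 0.29 and 1.82 ± 0.30 on day 14. Of 4 vitamin K cycle genes, only Ggcx, the carboxylase that modifies vitamin K-dependent factors, passed (0.95 ± 0.28 on day 14).

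Other abundant secreted hepatocyte proteins were lower too: 12, 10 and 9 of 21 fell and 1 rose on each day, with median log2 fold changes of -0.83, -0.65 and -0.73. Gc, the vitamin D-binding protein, fell by 1.30 ± 0.15, Fetub by 1.84 ± 0.33 and Tf, transferrin, by 1.37 ± 0.26 on day 7. Of 22 hepatocyte transcription factors and cytokine signalling genes, 3, 3 and 5 fell and 1, 2 and 1 rose. Beside both lists, 7.21%, 10.2% and 8.31% of all genes fell and 6.77%, 12.7% and 8.89% rose. Cebpd, a C/EBP factor, fell by 2.69 ± 0.53 and Il6r, the interleukin 6 receptor, by 1.71 ± 0.41 on day 28, and Foxa3 by 1.18 ± 0.24 on day 7.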
